A study of Mus musculus with 7 samples.

Results

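The immunity-related GTPases (IRGs) were examined in subcutaneous (s/c) mouse pancreatic ductal adenocarcinoma (PDA) tumors through 6 genes, *Irgm1*, *Irgm2*, *Igtp*, *Iigp1*, *Tgtp1* and *Tgtp2*. They were picked by symbol, with earlier results of these data known. They occupy 8 of the 38026 rows of the deposited table, because *Irgm1* and *Tgtp2* each have a second row under another gene identifier. Bulk RNA sequencing was performed on 7 tumors, 4 formed with sgScramble PDA cells (replicates 1 to 4) and 3 formed with sgKRT19 PDA cells (replicates 5, 6 and 8), which carried a guide RNA against *Krt19*, an epithelial keratin. All tumors grew for 2 weeks, without treatment, in C57BL/6 mice. The cancer cells of both groups were derived from the 1242 KPC line, which comes from a mouse pancreatic tumor, and both groups had received Cas9 by lentivirus together with their guide. The labels do not say which *Krt19* guide was used, or whether the injected cells were a polyclonal line or a single-cell clone, both of which the study prepared. The comparison asks how tumors of *Krt19*-edited cells differed from control tumors, here in an interferon-driven defense family.

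IRGs are GTPases that cells of many types, immune and non-immune, make in response to interferon gamma (IFN-γ), and they defend the cell against microbes that live inside vacuoles. The effector, or GKS, members (*Iigp1*, *Tgtp1* and *Tgtp2*) load onto the vacuole membrane and break it open, while the regulator, or GMS, members (*Irgm1*, *Irgm2* and *Igtp*) sit on the membranes of the cell itself and hold the effectors inactive there. The autophagy conjugation proteins direct the loading, and the guanylate binding proteins (GBPs) are a sister family that is induced by the same cytokine and acts on the same vacuoles.

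Of the 6 genes, 5 lie on chromosome 11 in the GRCm38 build. *Irgm1* (48861968 to 48871683), *Tgtp1* (48985327 to 48994172) and *Tgtp2* (49057194 to 49064206) are on the minus strand, and *Igtp* (58199556 to 58207591) and *Irgm2* (58199618 to 58222782) are on the plus strand and overlap each other. The set of RefSeq promoters used here has no entry for *Iigp1*, so its promoter was not searched. For the 5 genes on chromosome 11 it gives a promoter, taken as 250 bases before to 50 after the start of the RefSeq gene (GRCm38.p6). For *Irgm2* and *Tgtp1*, and to a lesser degree *Irgm1*, that start lies inside the gene body given above, which comes from GENCODE. All 5 held the letters GAAANNGAAA, the core of the interferon-stimulated response element (ISRE) that interferon regulatory factors bind. In 4 of the 5, *Irgm2*, *Igtp*, *Tgtp1* and *Tgtp2*, the letters TTCNNNGAA of the gamma-activated site (GAS), the element that IFN-γ signalling acts through, ended 2 bases ahead of the ISRE core. Both motifs were searched on both strands, and no member had a match of one motif that overlapped a match of the other. Of 32851 promoters in the same table, 1131 (3.44%) held the ISRE core, 2726 (8.30%) held the GAS letters and 149 (0.454%) held both. A match describes the letters in the window and was not tested as a binding site. A stretch of 60 bases of each promoter is printed 5′ to 3′ on the strand of the gene, with the letters of the motifs in capitals. It shows the ISRE core that these 5 genes have in common, which is not particular to them. The stretches are chr11:48871426-48871485 for *Irgm1*, chr11:58214878-58214937 for *Irgm2*, chr11:58199487-58199546 for *Igtp*, chr11:48992299-48992358 for *Tgtp1* and chr11:49064258-49064317 for *Tgtp2*.
Irgm1: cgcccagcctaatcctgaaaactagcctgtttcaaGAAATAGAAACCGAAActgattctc
Irgm2: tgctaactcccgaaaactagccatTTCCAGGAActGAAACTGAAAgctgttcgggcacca
Igtp: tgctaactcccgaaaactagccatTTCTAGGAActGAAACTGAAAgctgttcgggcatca
Tgtp1: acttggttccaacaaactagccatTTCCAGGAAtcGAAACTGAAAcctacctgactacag
Tgtp2: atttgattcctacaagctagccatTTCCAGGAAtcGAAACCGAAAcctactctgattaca

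In *Irgm1* the capitals cover 2 matches of the ISRE core that share letters, at bases −30 to −21 and −24 to −15 from the RefSeq gene start, and no GAS match was found in its window. In *Igtp* the ISRE core lay at −34 to −25, and in *Irgm2*, *Tgtp2* and *Tgtp1* it lay farther out, beginning at −64, −70 and −77. Promoters of other IRG genes in the table carried the ISRE core in 3 of 7 cases and both motifs in 2 of 7. In *Gm12185*, another gene of the family, the GAS letters lay at −86 to −78 and the ISRE core at −75 to −66. The GBP promoters in the table carried the ISRE core in 5 of 6 cases and both motifs in 2 of 6. The autophagy conjugation genes carried the ISRE core in 0 of 9 cases.

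**Figure D1:**
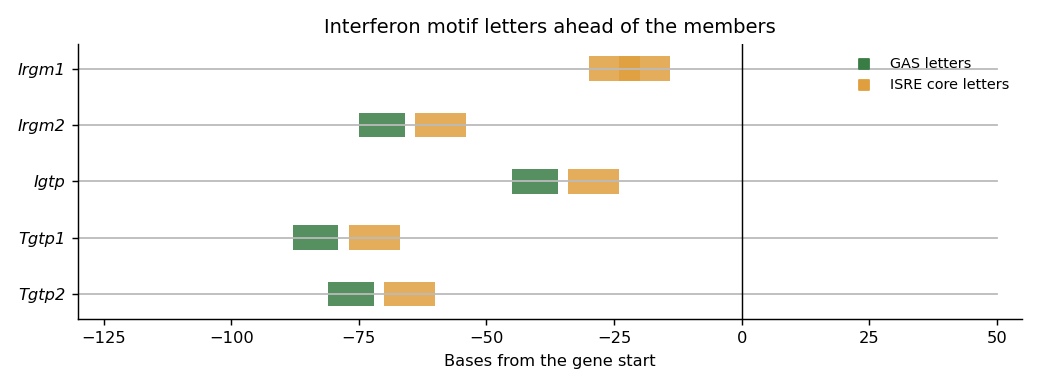
Positions of the ISRE core (orange) and GAS (green) letters in bases from the RefSeq gene start (0) for the 5 members with a promoter entry, 1 gene per line. In 4 genes the GAS letters sit 2 bases ahead of the ISRE core, and in *Irgm1* 2 matches of the ISRE core overlap (darker orange).

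The libraries held 40781199 to 44972100 reads, and 3 reads, taken as the floor of detection, were worth a normalized read count of 2.74 to 3.47. A normalized read count is the number of reads of a gene divided by the size factor of its library, and each mean is given with its SD among tumors. *Krt19* itself fell by 3.52 on the log2 scale, the direction its label gives, with control and sgKRT19 means of 23053 ± 4392 (SD, n = 4) and 2012 ± 434 (SD, n = 3). 7 skeletal muscle genes summed to 17728 to 24944 in the sgKRT19 libraries, to 2028 in sgScramble 3 and to 50.4 to 77.9 in the other 3 controls. *Ckm*, *Myh4* and *Actn2* were each at 0 in at least 1 control, so sgScramble 3 stood apart from its group in this respect. Its values are therefore named below wherever a result rests on them. Tests are those of limma on log2(value + 1) over 21322 genes, with an adjusted p under 0.05 as the call, and log2 fold changes are on that scale, sgKRT19 against sgScramble.

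All 6 IRGs rose in sgKRT19 tumors, by 1.54-fold to 3.96-fold. *Iigp1* and *Igtp* moved most, and *Irgm1* moved least. The median log2 fold change was 1.08 over the 6 genes and 0.01 over all genes tested. The median of the 6 rests on its middle values, those of *Tgtp1* (1.07) and *Tgtp2* (1.08). These genes are near-identical and cannot be read as separate, so counts out of 6 do not stand for 6 independent signals. Of all genes tested 34.0% were called, 17.9% as higher and 16.0% as lower in sgKRT19 tumors, so calls were common. The 6 of 6 is to be read beside the 17.9%, and the members were chosen with earlier results of these data known. For all 6 genes every sgKRT19 tumor lay above every sgScramble tumor, a separation found for 21.7% of the genes tested. In every one of the 6 genes the lowest library was sgScramble 3 and the highest was sgKRT19 8. Whole tumors were sequenced, so more cells that express a gene and more RNA of it per cell cannot be told apart.

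**Figure D2:**
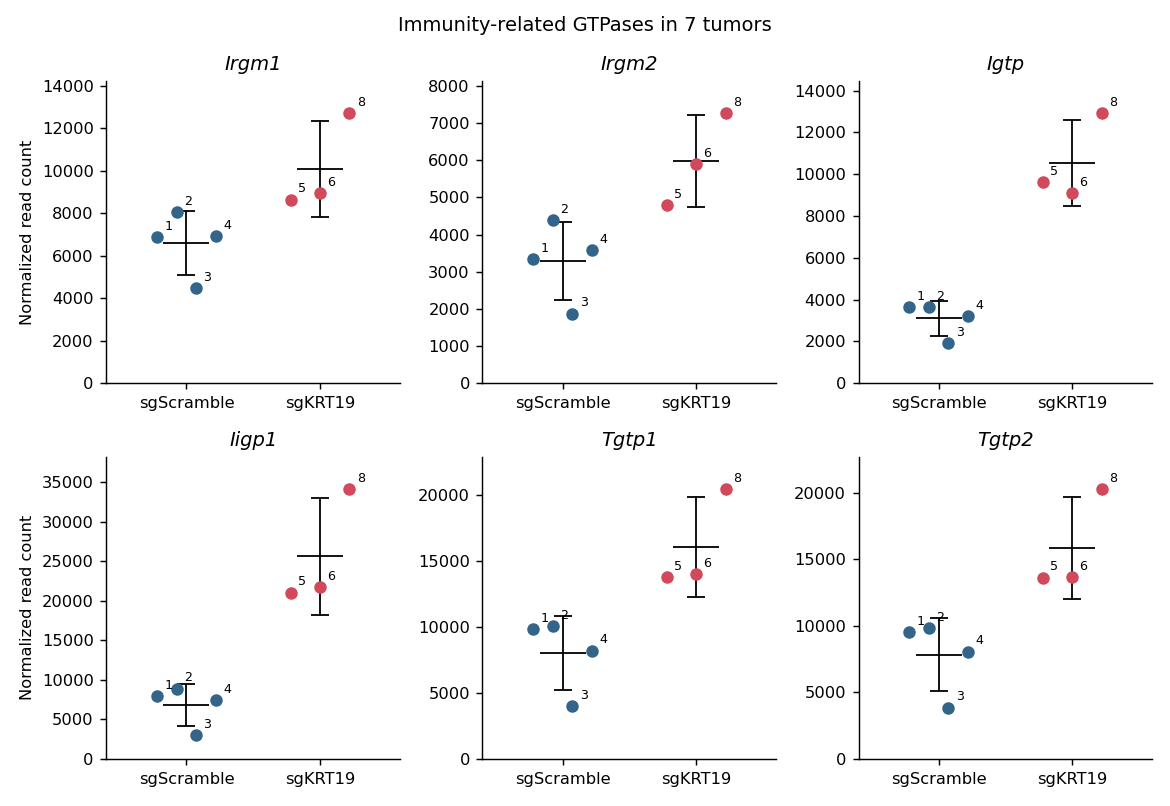
Normalized read counts of the 6 IRGs in the 4 sgScramble (blue) and 3 sgKRT19 (red) tumors, with the replicate number beside each point, the mean as a horizontal line and the SD as the error bar, on linear axes from 0. The groups separate by a wide gap in *Igtp* and *Iigp1* and by a narrow one in *Irgm1* and *Irgm2*, and sgScramble 3 and sgKRT19 8 are the lowest and highest points of every panel.

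Among the regulators, *Igtp* (also called Irgm3), which resides on the endoplasmic reticulum and lipid droplets, had the clearest difference. Its normalized read counts were 3651, 3626, 1913 and 3202 in sgScramble 1 to 4 and 9636, 9110 and 12907 in sgKRT19 5, 6 and 8. The lowest sgKRT19 tumor had 2.49 times the count of the highest control. The control mean was 3098 ± 816 (SD, n = 4) and the sgKRT19 mean 10551 ± 2057 (SD, n = 3), which gave a log2 fold change of 1.80 (95% interval 1.30 to 2.29, SE 0.223, adjusted p = 0.000360 by limma).

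*Irgm2*, a regulator of the Golgi membranes whose gene shares its first bases with *Igtp*, changed less. It was counted at 3348, 4381, 1871 and 3590.1 in the controls and at 4799, 5895 and 7258 in sgKRT19 tumors. The groups did not overlap, but the lowest sgKRT19 tumor was only 1.10 times the highest control. With means of 3298 ± 1048 (SD, n = 4) and 5984 ± 1232 (SD, n = 3), the log2 fold change was 0.90 (95% interval 0.33 to 1.47, SE 0.257, adjusted p = 0.0221 by limma). The call was lost without sgKRT19 6 (adjusted p = 0.0562) and without sgKRT19 8 (adjusted p = 0.0829), and also when libraries were scaled by their size alone (log2 fold change 0.69, adjusted p = 0.0683).

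*Irgm1*, the regulator best known for its loss, which leaves mice open to many intracellular infections, showed the smallest change of the 6. Its counts were 6889, 8053, 4491 and 6915 in the controls and 8639, 8938 and 12702 in sgKRT19 tumors. The nearest tumors of the groups, sgScramble 2 and sgKRT19 5, differed by a factor of 1.07. Means of 6587 ± 1499 (SD, n = 4) and 10093 ± 2264 (SD, n = 3) gave a log2 fold change of 0.62 (95% interval 0.17 to 1.08, SE 0.205, adjusted p = 0.0395 by limma). This call was the least steady of the family. It was lost without sgScramble 3, sgScramble 4, sgKRT19 5, sgKRT19 6 or sgKRT19 8, each left out alone, with adjusted p of 0.0516 to 0.144, and it was lost under scaling by library size alone (log2 fold change 0.41). The log2 fold change was 0.45 without sgScramble 3 and 0.45 without sgKRT19 8.

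The second row of *Irgm1* had 3759, 4563, 2493 and 4090.0 in the controls and 4127, 4913 and 6576 in sgKRT19 tumors. Its groups overlapped, with sgScramble 2 above sgKRT19 5, and its log2 fold change of 0.49 did not pass the test (adjusted p = 0.101 by limma). With both rows added, a choice made after seeing the data, *Irgm1* had a log2 fold change of 0.58 and an adjusted p of 0.0569.

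Among the effectors, *Iigp1* (Irga6), which coats the vacuoles of *Toxoplasma* and *Chlamydia*, had the largest difference of the 6 genes. *Iigp1* lies on chromosome 18, at 60376027 to 60392634. It was counted at 7932, 8904, 3016 and 7445 in the controls and at 21021, 21740 and 34122 in sgKRT19 tumors. sgScramble 3 stood well under the other controls and sgKRT19 8 well over the other sgKRT19 tumors, and the gap between the groups was still 2.36-fold. The means were 6824 ± 2611 (SD, n = 4) and 25628 ± 7365 (SD, n = 3), and the log2 fold change was 1.98 (95% interval 1.23 to 2.74, SE 0.340, adjusted p = 0.00197 by limma).

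*Tgtp1* and *Tgtp2* encode near-identical effectors (Irgb6), first described as a GTPase of activated T cells. *Tgtp1* was counted at 9816, 10066, 3982 and 8214 in the controls and at 13772, 14036 and 20459 in sgKRT19 tumors, and *Tgtp2* at 9517, 9820, 3861 and 8058 and at 13620.4, 13659 and 20268. The lowest sgKRT19 tumor had 1.37 and 1.39 times the highest control, so the gap was wider than that of *Irgm1* and *Irgm2* and narrower than that of *Iigp1*. Their log2 fold changes were 1.07 (95% interval 0.41 to 1.73, SE 0.298, adjusted p = 0.0207 by limma) and 1.08 (95% interval 0.42 to 1.75, SE 0.300, adjusted p = 0.0200 by limma). Both calls were lost without sgKRT19 8, with adjusted p of 0.0789 and 0.0773. The second row of *Tgtp2* had a log2 fold change of 1.01 (adjusted p = 0.0267 by limma), with 2706 to 6843 in the controls and 8950 to 13597 in sgKRT19 tumors.

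The pair cannot be read as separate genes. Their coding transcripts were identical at 2804 of 2810 aligned bases (99.8%), and 84.6% of the 76-base windows of *Tgtp1* were also found in *Tgtp2*. The ratio of *Tgtp1* to *Tgtp2* was 1.01 to 1.03 in all 7 libraries. How reads that match both genes were counted is not given in the sources used here. *Tgtp1* and its neighbor *Gm12185*, another gene of the family, also had 223 exon bases in common (6.96% of the exon bases of *Tgtp1*). *Igtp* and *Irgm2* overlap by 162 exon bases, which is 8.01% of *Igtp* and 4.39% of *Irgm2*, and 160 of 1947 windows of *Igtp* were found in *Irgm2*. The windows of *Irgm1* (0 of 2184) and *Iigp1* (0 of 3046) were found in no other gene of the reference chromosomes, a search that did not include the second identifier of *Irgm1*. Other pairs of members were 63.5% to 82.9% identical over the bases aligned without gaps, with *Irgm2* and *Igtp* the closest. That pair had 1749 such bases and 2052 gap positions, so these shares do not describe whole transcripts.

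Summed over the 6 main rows, in which reads shared by *Tgtp1* and *Tgtp2* may stand more than once, IRG counts were 41154, 44851, 19134 and 37425 in sgScramble 1 to 4 and 71487, 73377 and 107716 in sgKRT19 5, 6 and 8. Within the controls most of the spread came from 1 library. The highest control exceeded the lowest by 1.79-fold to 2.95-fold over the 6 genes, and by 1.14-fold to 1.31-fold without sgScramble 3. Within sgKRT19 tumors the same ratio was 1.42 to 1.62.

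The members did not move by the same factor. *Igtp* was counted at 0.828 to 1.09 times *Irgm2* in the controls and at 1.55 to 2.01 times in sgKRT19 tumors. The ratio of *Iigp1* to *Irgm1*, which share no window, was 1.15, 1.11, 0.672 and 1.08 in the controls and 2.43, 2.43 and 2.69 in sgKRT19 tumors. Neither ratio overlapped between the groups. This largely restates the log2 fold changes of the paired genes, 1.80 over 0.90 and 1.98 over 0.62, and is no separate result. The members were chosen with earlier results of these data known. The division was not one of effectors against regulators, since each class held 1 of the genes with the largest changes. The mean log2 level of the effectors minus that of the regulators was 1.05, 0.93, 0.51 and 0.88 in the controls and 1.10, 1.04 and 1.19 in sgKRT19 tumors, a difference of 0.27 between the means (0.84 ± 0.232, SD, n = 4, against 1.11 ± 0.0760, SD, n = 3), and sgScramble 1 lay above sgKRT19 6. The score counts *Tgtp1* and *Tgtp2* as separate genes, so their shared signal weighs more than that of *Iigp1*. A score with the pair counted as 1 gene was not computed. The overlap of sgScramble 1 and sgKRT19 6 may therefore depend on this weighting. These ratios and scores carry no test.

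Levels were compared between genes per kilobase of the longest coding transcript, over the main rows only. In sgScramble tumors *Irgm1* (2916 ± 664 normalized reads per kilobase), *Tgtp1* (2841 ± 997) and *Tgtp2* (2781 ± 977, all SD, n = 4) were the highest and lay within their spread of each other, followed by *Iigp1* (2187 ± 836), *Igtp* (1532 ± 404) and *Irgm2* (935 ± 297). In sgKRT19 tumors *Iigp1* was the highest (8211 ± 2360, SD, n = 3), *Tgtp1* (5699 ± 1341), *Tgtp2* (5640 ± 1362), *Igtp* (5218 ± 1017) and *Irgm1* (4468 ± 1002) followed within their spread of each other, and *Irgm2* was again the lowest (1696 ± 349). The place of *Iigp1* and *Irgm1* depends on the length chosen. With all annotated exon bases as the length they were 4401 and 1737 per kilobase in sgKRT19 tumors, under *Tgtp2* (5395), *Igtp* (5218) and *Tgtp1* (5020). The second rows of *Irgm1* and *Tgtp2*, left out here, had mean counts of 3726 and 5490 in the controls. In sgKRT19 tumors these were 5205 and 10576. The places of *Irgm1* and *Tgtp2* in the order therefore hold for the main rows only.

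The rest of the family was examined next. Of 13 further IRG genes listed, 12 were in the table and 10 were tested, of which 4 rose, 0 fell and 6 did not pass the test, beside 17.9% and 16.0% of all genes tested. Their median log2 fold change was 0.38, and it was 0.07 without sgScramble 3, 0.59 without sgScramble 2, 0.70 without sgKRT19 5 and 0.16 under scaling by library size alone. The 4 were *Gm12250* (Irgb10, an effector that also breaks open bacteria), *Gm4841* and *Gm4951* (neighbors of *Iigp1* in the same group of effectors) and *Ifi47* (Irgd). *Gm12250* was counted at 335, 272, 112 and 327 in the controls and at 987, 954 and 1273 in sgKRT19 tumors, a log2 fold change of 2.14 (adjusted p = 0.00122 by limma). *Ifi47*, the most highly counted of them, had 1533 to 2839 and 4135 to 6349, a log2 fold change of 1.22 (adjusted p = 0.00182 by limma). *Gm4841* had means of 709 ± 358 and 2780 ± 989 with a log2 fold change of 2.10 (adjusted p = 0.00478 by limma), and *Gm4951* had 631 ± 262 and 1326 ± 429 with a log2 fold change of 1.15 (adjusted p = 0.0341 by limma). All 4 separated the groups, as 21.7% of all genes tested did, and sgScramble 3 was the lowest library in each. These 4 are the genes called in the same libraries, so their separation adds little to the calls. In the 6 that did not pass the test the groups overlapped. The call of *Gm4951* was lost without sgScramble 1 (adjusted p = 0.0515), sgKRT19 6 (adjusted p = 0.0741) or sgKRT19 8 (adjusted p = 0.122), under scaling by library size alone (adjusted p = 0.0760) and by limma without a trend (adjusted p = 0.0730).

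The family did not move as a block. *Gm12185*, beside *Tgtp1*, had a log2 fold change of 0.67 (adjusted p = 0.112), *Gm5431* had 0.08 (adjusted p = 0.861), and *F830016B08Rik* had −0.06 with an interval of −1.64 to 1.52. *9930111J21Rik1* and *9930111J21Rik2*, tandem genes of the family, had log2 fold changes of −1.04 (adjusted p = 0.0709 by limma) and −0.96 (adjusted p = 0.0735 by limma), lower in sgKRT19 tumors but with overlapping groups. Their counts were 218, 360, 114 and 438 in the controls and 91.3, 162 and 120 in sgKRT19 tumors for *9930111J21Rik1*. Both were called lower without sgScramble 3, their lowest control (adjusted p = 0.00558 and 0.00841 by limma), under scaling by library size alone (adjusted p = 0.0412 and 0.0425 by limma) and by DESeq2 (adjusted p = 0.00746 and 0.0113). edgeR called *9930111J21Rik1* lower (adjusted p = 0.0455) and gave *9930111J21Rik2* an adjusted p of 0.0540. *Irgq*, a relative of the family that interferon does not induce, had 860 to 1031 in the controls and 748 to 887 in sgKRT19 tumors, a log2 fold change of −0.18 (95% interval −0.45 to 0.09). *Gm12187* and *Irgc1*, a gene of the testis, had values under the filter.

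**Figure D3:**
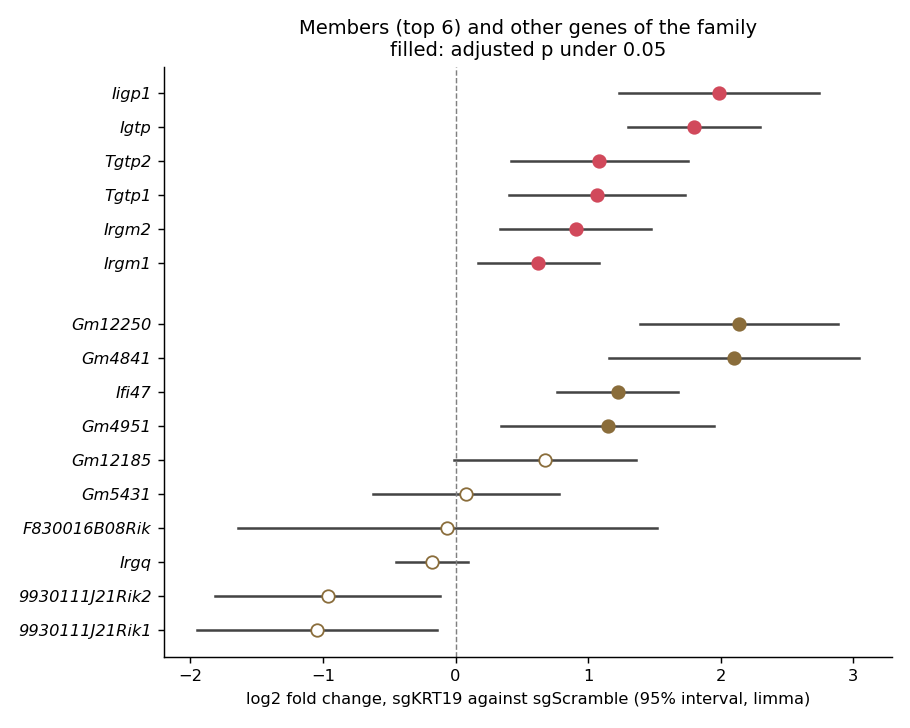
log2 fold changes (points) of the 6 members (red) and the 10 other tested genes of the family (brown), sgKRT19 against sgScramble tumors, with 95% intervals from limma (lines), filled where the adjusted p was under 0.05. The members lie between 0.62 and 1.98, and the other genes spread from −1.04 to 2.14.

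The cytokine that induces the family and its signalling genes were then compared, from a list of 13 genes. Of these 6 rose and 0 fell, beside 17.9% and 16.0% of all genes tested (median log2 fold change 0.19). *Ifng*, which encodes IFN-γ, was counted at 40.9, 24.7, 22.8 and 29.7 in the controls and at 187, 147 and 199.5 in sgKRT19 tumors. The groups were far apart and sgScramble 3 and sgKRT19 8 were again the extremes, and the log2 fold change reached 2.57 (95% interval 2.02 to 3.13, adjusted p = 9.67e-05 by limma). Among the others, *Socs1*, a feedback inhibitor of the pathway, rose by a log2 fold change of 1.57, *Irf1*, a factor that binds the ISRE, by 0.91, *Irf8* by 0.83 and *Ifngr1*, the ligand-binding receptor chain, by 0.49. *Pias1*, an inhibitor of the pathway, had the smallest value, −0.24 (adjusted p = 0.121 by limma).

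Type I and type III interferon signalling is the other route to many of the same genes. Beside the 17.9% of all genes tested, 2 of 7 such genes rose, *Irf7* (log2 fold change 1.67, from 772 ± 282 to 2448 ± 844) and *Irf9* (0.44), both factors of that pathway, and 0 fell. *Stat2*, the partner of *Irf9* and the highest of the list by its mean over all 7 libraries, had a log2 fold change of 0.56 with overlapping groups (adjusted p = 0.120 by limma), and *Tyk2*, a receptor kinase, had −0.16. Of 12 antiviral targets of type I interferon, 11 rose, with a median of 1.30. *Mx1*, an antiviral GTPase, had the largest change (2.04, from 99.7 ± 16.3 to 461 ± 286), *Ifit3* was the most highly counted (1.29) and *Mx2* was the exception (−0.08, adjusted p = 0.856 by limma).

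The GBPs, the sister family, rose in 9 of 11 cases with 0 lower, beside 17.9% and 16.0% of all genes tested. Their median log2 fold change was 1.38. *Gbp2*, the most highly counted, had 10220.1, 8615, 6283 and 9934 in the controls and 23934, 25620.4 and 32262 in sgKRT19 tumors, a log2 fold change of 1.65 (adjusted p = 0.000206 by limma). *Gbp6* had the largest change (1.72), and *Gbp9* the smallest (0.50, adjusted p = 0.229 by limma). Reads shared among the GBPs were not examined.

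The genes that IRGs work with on vacuoles moved in both directions, and for these lists the share of all genes called (17.9% higher, 16.0% lower) is the background. Of 13 autophagy conjugation genes, 2 rose, 1 fell and 10 did not pass the test, with a median log2 fold change of 0.14. *Gabarapl2*, a member of the ATG8 family that localizes IRGs and GBPs, had a log2 fold change of 0.60 (adjusted p = 0.0180 by limma) and *Atg5*, part of the conjugation enzyme, had 0.47. *Gabarapl1*, a close relative of *Gabarapl2*, fell by 0.65 on the log2 scale (adjusted p = 0.00576 by limma). *Map1lc3b*, the most highly counted of the list, had 0.34 (adjusted p = 0.0874 by limma). Of 6 genes that mark damaged vacuoles with ubiquitin or galectins, *Lgals3* and *Lgals8* rose (both 0.47), *Sqstm1*, the ubiquitin receptor p62, fell by 0.50, and *Trim21*, a ubiquitin ligase, had 0.53 (adjusted p = 0.0540 by limma). Of 8 inflammasome genes, which sense what an opened vacuole releases, 5 rose and 1 fell. The largest rise was that of *Casp1*, the inflammasome protease (1.44), *Gsdmd*, the pore-forming protein, was the most highly counted (0.37), and *Aim2*, a sensor of DNA, fell by 0.86.

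Without sgKRT19 8, the number called higher was 6 of 13 for IFN-γ signalling, 1 of 7 for type I and III signalling, 8 of 12 for the antiviral targets, 7 of 11 for the GBPs, 1 of 13 for autophagy conjugation and 4 of 8 for the inflammasome. Without sgScramble 3 these numbers were 6, 1, 10, 9, 2 and 4. Type I and III signalling was also at 1 without sgScramble 4 or sgKRT19 5, autophagy conjugation at 1 without sgScramble 2 or 4 and at 0 without sgKRT19 5, the vacuole list at 1 without sgScramble 2 or 4 or sgKRT19 6 or 8, and the inflammasome list at 3 without sgScramble 2. Scaling by library size alone took the median of the IFN-γ signalling, type I and III signalling, autophagy conjugation and vacuole lists below 0, to between −0.07 and −0.01, and shifted the median of all genes tested to −0.21.

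**Figure D4:**
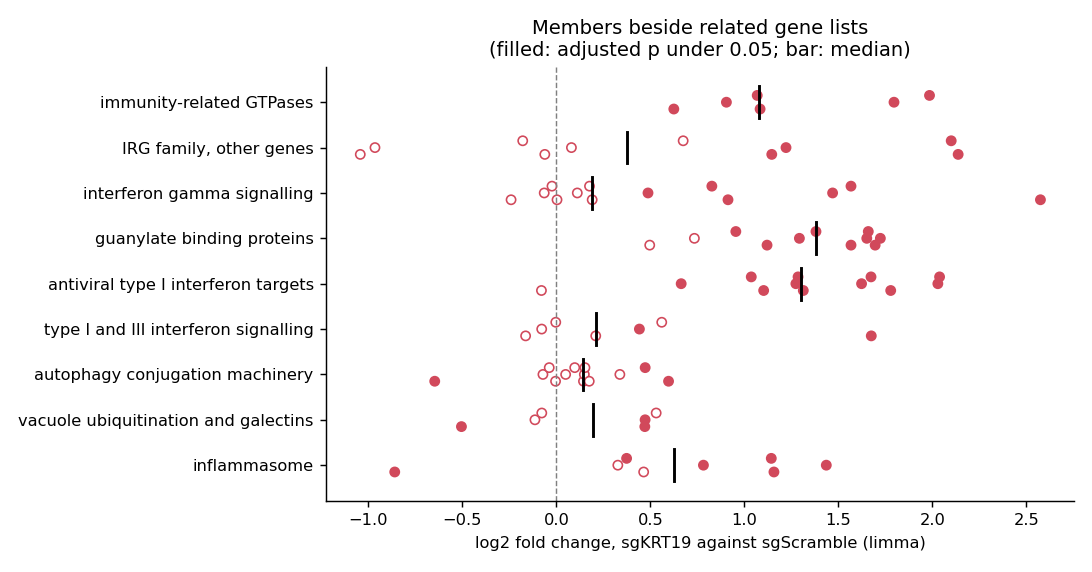
log2 fold change of each tested gene (circles, filled where the adjusted p by limma was under 0.05) in the 6 members and 8 related lists, sgKRT19 against sgScramble tumors, with the median as a black bar. The medians of the members (1.08), the GBPs (1.38) and the antiviral targets (1.30) lie to the right of those of the signalling, autophagy conjugation and vacuole lists (0.14 to 0.21).

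Markers of cell types moved with the IRGs in part. Their counts are to be read beside the 17.9% of all genes tested that were called higher and the 16.0% called lower. The 8 T cell markers all rose, and their sum was 972, 948, 446 and 536 in the controls and 5180, 5775 and 3017 in sgKRT19 tumors. The sum thus separated the groups as the IRGs did, but it ordered the tumors within them differently. sgScramble 4 was close to sgScramble 3 in its T cell sum and had 37425 summed IRG counts against 19134, and in sgKRT19 tumors sgKRT19 8 had the lowest T cell sum and the highest IRG counts. The 3 general leukocyte markers rose (sums of 5663 to 7767 and of 9813 to 13415), with sgKRT19 8 again the lowest of its group. Of the 8 macrophage and monocyte markers 2 rose and 1 fell, and the sums overlapped (29222 to 42315 and 36383 to 54286). Natural killer cell markers rose in 3 of 5 cases (221 to 382 and 1354 to 1577), neutrophil markers in 4 of 4 tested (361 to 534 and 1035 to 1146), dendritic cell markers in 3 of 5 (1069 to 1461 and 1510 to 2122) and endothelial markers in 3 of 5 (2592 to 3704 and 4269 to 4779). Most of the natural killer cell sum in sgKRT19 tumors was *Gzma* (means 76.8 and 831) and *Klrk1* (100 and 379). *Ncr1* and *Klrb1c* overlapped between the groups and were not called (adjusted p = 0.197 and 0.0525 by limma). Of 7 markers of the carcinoma epithelium, 4 rose (119355 to 156961 and 246353 to 260142), and all 7 skeletal muscle markers rose. Most of the epithelial sum was *Krt8* (means 55494 and 103416) and *Krt18* (49260 and 95589), keratins like the edited gene. *Epcam*, *Cldn4* and *Cldn7* were not called. Fibroblast markers were called in 0 of 6 cases by limma (62705 to 152269 and 76824 to 88588), and keratinocyte, adipocyte and B cell markers in 0 of the 3, 4 and 1 tested. Some counts rest on single libraries: 1 of 5 dendritic cell markers was called without sgScramble 2 or sgKRT19 6 and under scaling by library size alone, 0 macrophage markers were called higher under that scaling and 1 without sgKRT19 5, 1 fibroblast marker was called lower and 2 adipocyte markers higher without sgScramble 1. The part of these cell types in the IRG difference was not tested.

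**Figure D5:**
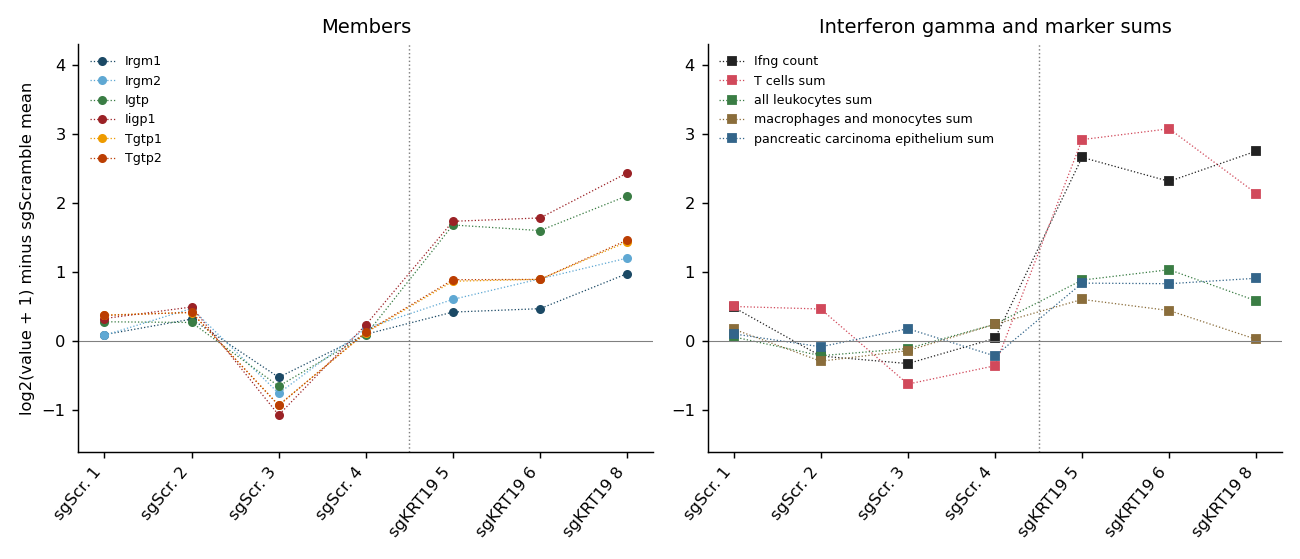
log2(value + 1) minus the mean of the sgScramble tumors, in each of the 7 tumors, for the 6 members (left) and for *Ifng* and the summed markers of 4 cell types (right), with dotted lines that join values of 1 gene or sum and carry no order. sgScramble 3 lies at the bottom of the controls for the members, *Ifng* and T cells, and sgKRT19 8 is the highest sgKRT19 tumor for the members and *Ifng* but the lowest for T cells, leukocytes and macrophages.

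The genes most like each member were sought among 12308 genes outside the family, by the root mean square difference of log2(value + 1) over the 7 libraries after centring each gene on its own mean. For *Irgm1* they were *Trim34b* (0.0787) and *Herc6* (0.0881), and for *Irgm2* they were *Parp14* (0.0678) and *Gvin1* (0.172). For *Igtp* they were *Gbp3* (0.112) and *Tubb3* (0.124), and for *Iigp1* *Gbp6* (0.159) and *Gbp10* (0.200). *Tgtp1* and *Tgtp2* both had *Ifi44* as the nearest (0.162 and 0.168), followed by *Oasl2* (0.171) and *Gvin1* (0.171). By the same measure *Tgtp1* and *Tgtp2* were 0.0120 apart, *Irgm2* and *Tgtp1* 0.174, *Irgm1* and *Irgm2* 0.190 and *Igtp* and *Iigp1* 0.222, while *Irgm1* and *Iigp1* were the farthest apart (0.716). *Igtp* was by this measure nearer to the effector *Iigp1*, on another chromosome, than to *Irgm2*, which it overlaps (0.468). The measure takes in the difference between the groups, a log2 fold change of 1.80 for *Igtp*, 1.98 for *Iigp1* and 0.90 for *Irgm2*.

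Genes beside the members on the chromosomes were counted as well. Of 14 protein-coding genes outside the family within 100 kb of a member, 10 were tested, 2 rose and 2 fell, close to the 17.9% and 16.0% of all genes tested, and their median log2 fold change was −0.02. *Psme2b*, between *Irgm1* and *Tgtp1*, had the largest change, with means of 500 ± 98.4 (SD, n = 4) and 1207 ± 148 (SD, n = 3) and a log2 fold change of 1.28 (adjusted p = 0.000421 by limma). It is a copy of *Psme2*, a subunit of the IFN-γ-inducible proteasome activator, and 59.8% of its 76-base windows were also found in *Psme2*, so its count is uncertain. The other 3, named after their values were seen, were *Olfr56* (0.93), which has 1.41% of its windows in common with *Ifi47*, *Trim41* (−0.56) and *Zfp692* (−0.64).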

How the data were processed

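RNA of 7 whole tumors was sequenced, as polyadenylated RNA per the labels and with a stranded total RNA kit per the methods of the study. The labels do not tie the tumors to separate mice, so p-values measure the spread between these samples. The labels name the mm10 build (the submitters' processing notes). The aligner, the counting program and the annotation are not given in the sources used here. The deposited table holds a signal per gene and library, which the authors made by dividing read counts by 1 size factor per library. Whole reads (within 0.1) were recovered for 100% of values up to 1000 reads, and 0 columns of other samples were present.

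The test took genes that reached 10 in 3 or more libraries and used limma 3.58.1 in R 4.3.3 (lmFit on log2(value + 1) with the group as the only term, eBayes with trend, Benjamini-Hochberg adjustment). The pseudocount understates changes of low genes. edgeR 4.0.16 and DESeq2 1.42.0 were run on the recovered reads as alternatives, and the fits were tested on simulated data. Replicates differed by far more than sampling noise, with a chi-square of 17.4 to 75.0 per degree of freedom. Floors cover counting error only, since reads carry no molecular identifiers.

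Positions, transcripts and exon overlaps came from GENCODE M21 of GRCm38, which holds 37167 of the identifiers (97.7%), and promoters from RefSeq. Named besides the members were every listed gene of the family, *Krt19* and *Ifng*, the most highly counted gene and those with the largest and smallest log2 fold change of each other pathway list, the 2 genes most like each member and the neighbor with the largest change. Other listed genes that were called are also named where few passed, after their values were seen. Some cell type markers are named too, likewise after their values were seen. The members and lists were chosen with earlier results of these data known. A listed gene that this rule names is not reported here. No batch is given in the labels.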

Additional observations from a re-analysis of the deposited data

Results flagged for a closer look

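Among 38 sets of values checked within the 4 sgScramble libraries, 3 held a library far from the other 3, where chance gives about 1 in 20. The measure is the gap to the nearest library divided by the whole range of the group. The ratio of *Iigp1* to *Irgm1* was 0.672 in sgScramble 3 against 1.08 to 1.15 in the other controls, a share of 0.844. The dendritic cell marker sum was 1461 in sgScramble 4 against 1069 to 1101 (0.917). The skeletal muscle marker sum was 2028 in sgScramble 3 against 50.4 to 77.9 (0.986). sgScramble 3 was thus the library of 2 of the 3, and it is also the lowest library of all 6 IRGs. Whether its muscle signal bears on its IRG counts was not tested.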

How the results depend on the processing

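The log2 fold changes of all 6 IRGs stayed above 0 under every alternative run. *Igtp* (1.58 to 1.89) and *Iigp1* (1.63 to 2.15) were called in all 16. With scaling by library size only, *Irgm1* (0.41, adjusted p = 0.158) and *Irgm2* (0.69, adjusted p = 0.0683) lost their calls. By limma without a trend *Irgm1* (0.62, adjusted p = 0.0784), *Irgm2* (0.90, adjusted p = 0.0540) and *Tgtp1* (1.07, adjusted p = 0.0505) lost them, which left 3 of 6. In limma's test against a 1.5-fold change *Irgm1* (0.62), *Irgm2* (0.90), *Tgtp1* (1.07) and *Tgtp2* (1.08) were not called, which left 2 of 6, and 1336 genes in all were called. With each library left out in turn the log2 fold change of *Irgm1* was 0.45 to 0.73, of *Irgm2* 0.65 to 1.06, of *Tgtp1* 0.76 to 1.21 and of *Tgtp2* 0.77 to 1.22. The number of the 6 called was then 2 to 6, with 2 (*Igtp* and *Iigp1*) without sgKRT19 8. With both rows of *Irgm1* added, a choice made after seeing the data, the value was 0.58 (adjusted p = 0.0569). All 6 were called by edgeR and by DESeq2, at the other pseudocounts and under the other filters. The share of calls that were higher was 27.7% under library size only and 52.8% otherwise in the fit reported. The difference of effector and regulator levels was 0.16 to 0.34 over its 9 alternatives, all of which count *Tgtp1* and *Tgtp2* as separate genes. The causes were not tested. No paired analysis was possible because the groups share no replicate number. With 3 and 4 tumors, small changes such as that of *Irgm1* cannot be placed firmly on either side of the threshold.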
